A study of Mus musculus with 24 samples.

Results

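The methionine cycle and transsulfuration genes comprised 10 genes, chosen by symbol for their roles in S-adenosylmethionine synthesis, S-adenosylmethionine use, homocysteine remethylation and the conversion of homocysteine to cysteine. They were 10 of the 56205 gene rows of a mouse liver count table, and all 10 passed the filter on low counts that left 14109 genes for testing. RNA was sequenced from whole livers of C57BL/6J mice after 20 weeks on 1 of 2 diets, with 12 libraries from mice on a methionine-choline deficient diet (MCD) and 12 from mice on its control diet. No mouse carried an engineered allele or received a drug by the labels. Both sexes were used, but the labels do not give the sex of a single library, so sex was not a term of the test, and the age of these mice at the start is not given in the sources used here. The study's methods describe the MCD diet as rich in fat. The text of the study also gives the name CDAHFD, a high-fat diet lacking choline, to a mouse model of fibrosis, and how much methionine the diet of these mice held is not given in the sources used here. Each library is taken as 1 animal, and nothing further in the labels says how the animals were housed or grouped.

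In liver, methionine is activated to S-adenosylmethionine, the methyl donor of the cell. Its use by methyltransferases leaves S-adenosylhomocysteine, which is split into adenosine and homocysteine. Homocysteine is either methylated back to methionine, with betaine (made from choline) or a folate as the methyl source, or passed through cystathionine to cysteine. Hepatocytes carry most of this traffic. Choline and methionine are both inputs of the cycle, and their shortage in the diet is a standard way to produce a fatty, fibrotic liver in mice.

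The members form 2 pairs of related enzymes, and the stretches that the pairs share are shown because reads from such stretches could be counted for either gene. The coding sequences of Mat1a and Mat2a were identical at 72.8% of 1191 aligned columns, and their longest identical run was 15 bases. Bhmt and Bhmt2 are neighbours on chromosome 13 with coding sequences identical at 67.1% of 1225 aligned columns, and their longest identical run was 59 bases, in exon 7 of 8 of both genes. The 15-base run is shorter than a read end of 51 bases, the length that the study's methods give, and the 59-base run is longer. Both are shown 5′ to 3′ on the coding strand, with positions on GRCm38.
Mat1a (chr14:41114267-41114281, plus strand) and Mat2a (chr6:72436465-72436479, minus strand): ccagatattgcccaa
Bhmt (chr13:93620181-93620239, minus strand) and Bhmt2 (chr13:93662401-93662459, minus strand): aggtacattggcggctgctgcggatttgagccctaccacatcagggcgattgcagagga

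Promoters are shown for the member that rose and for 2 that fell, as the 250 bases before the RefSeq start of each gene on GRCm38.p6, all on the minus strand. Promoters were at hand for 8 of the 10 members, not for Mat1a and Cth. They were searched on both strands for the amino acid response core TGATGNAAN, through which ATF4 acts, and the antioxidant response core TGACNNNGC, through which NRF2 acts. The first is held by 3.4% and the second by 10.2% of 32851 mouse promoters of that length, and 0 of the 8 members held either in this window. With shares this low, 0 of 8 says little about these members, and nothing about Mat1a and Cth. The TATA box letters TATAAA (12.4% of promoters) and the CCAAT box letters CCAAT (33.8%) were searched on both strands after the sequences had been seen, and capitals mark their matches (ATTGG is CCAAT on the other strand). Mat2a held TATAAA at bases -32 to -27 from the start and 1 CCAAT match, Gnmt held 1 CCAAT match, and Bhmt2 held neither. A match is a run of letters, not a shown binding site.
Mat2a (chr6:72439557-72439806): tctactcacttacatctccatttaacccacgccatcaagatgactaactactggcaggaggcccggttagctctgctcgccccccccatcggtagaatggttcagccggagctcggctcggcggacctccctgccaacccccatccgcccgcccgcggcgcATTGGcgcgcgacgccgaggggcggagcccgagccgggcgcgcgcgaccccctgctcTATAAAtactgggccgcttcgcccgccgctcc
Gnmt (chr17:46729166-46729415): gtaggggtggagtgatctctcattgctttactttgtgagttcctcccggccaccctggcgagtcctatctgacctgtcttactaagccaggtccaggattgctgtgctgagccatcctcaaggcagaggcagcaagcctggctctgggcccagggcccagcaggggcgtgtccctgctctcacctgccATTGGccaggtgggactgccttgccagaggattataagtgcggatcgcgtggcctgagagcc
Bhmt2 (chr13:93674303-93674552): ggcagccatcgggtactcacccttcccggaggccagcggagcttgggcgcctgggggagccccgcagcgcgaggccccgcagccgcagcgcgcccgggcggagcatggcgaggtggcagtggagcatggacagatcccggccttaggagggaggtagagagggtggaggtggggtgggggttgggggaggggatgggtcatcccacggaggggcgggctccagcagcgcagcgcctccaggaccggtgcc

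Library totals ran from 16793207 to 24915175 counts in control and from 16388650 to 24577848 in MCD, and the 10 members together took a median of 0.978% of the counts of a control library and 0.853% of an MCD library. Levels are CPM, the usual depth-scaled count, of a library total scaled by TMM, a normalization that sets libraries level over the bulk of genes. The TMM factors did not overlap between diets, from 0.6425 to 0.9729 in control and from 1.0703 to 1.259 in MCD, so fold changes depend on the scaling and are also given under others. Control replicate 12 stood apart, with the lowest factor and a correlation of 0.9266 with the median of the other control libraries, against 0.9643 or more for every other library. Without it, no call on a member changed in edgeR's test, and the log2 fold changes of Gnmt and Cbs were -1.01 and -0.99. In bulk RNA, fewer cells of a type and less RNA per cell cannot be told apart.

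Of the 10 members, 1 was higher in MCD (Mat2a), 6 were lower (Gnmt, Ahcy, Bhmt, Bhmt2, Cbs and Mtr) and 3 were not called (Mat1a, Mat2b and Cth). A call needed an adjusted p of 0.01 or less in edgeR's quasi-likelihood test over all genes and a log2 fold change beyond 0.5 in either direction. By that rule 38.3% of all tested genes were called, 19.2% higher and 19.1% lower, so a large part of the liver transcriptome differed between the diets. The median log2 fold change of the members was -0.57, beside -0.10 over all genes tested. On the TMM scale the diets did not overlap for Mat2a, Bhmt2 and Cbs. By total counts only Mat2a, of these 3, stayed without overlap, and 2 MCD libraries lay above the lowest control library for Bhmt2 and 2 for Cbs. On the TMM scale groups did not overlap for 14.4% of all tested genes, with MCD above control for 9.50% and below for 4.89%. The plot of CPM by library shows each value.

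**Figure D1:**
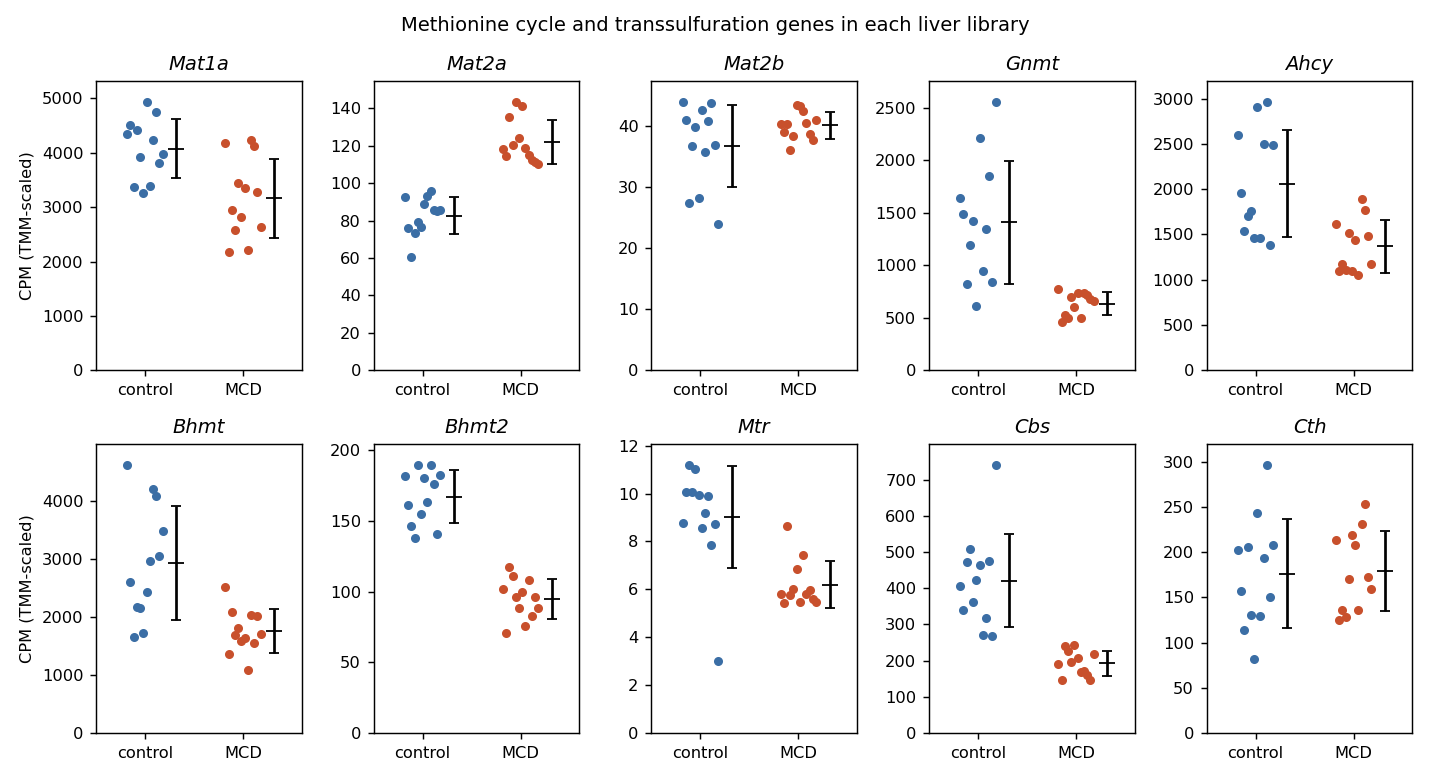
CPM scaled by TMM (vertical axis, from 0) of each of the 10 genes in the 12 control (blue) and 12 MCD (orange) libraries; points are libraries and the black bars are the mean ± SD. On this scale all MCD libraries lie above all control libraries for Mat2a and below them for Bhmt2 and Cbs, whereas the diets overlap for the other 7 genes.

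Levels between genes were compared per kilobase of exon, in CPM per kb. In control livers Mat1a (1176 ± 158, SD, n = 12) and Gnmt (1169 ± 485) headed the order, followed by Ahcy (735 ± 212) and Bhmt (509 ± 172). Bhmt2 (67.7 ± 7.60), Cth (63.2 ± 21.6) and Cbs (56.2 ± 17.2) formed a second tier, and Mat2a (18.4 ± 2.25), Mat2b (7.34 ± 1.35) and Mtr (1.06 ± 0.251) were lowest. Mat1a with Gnmt, Gnmt with Ahcy, and the 3 genes of the second tier differed by less than the SD of the more variable gene. That SD is a spread between libraries, and the order of these genes within single libraries was not tested. In MCD livers Mat1a (912 ± 211) stood above Gnmt (525 ± 92.3) by more than either SD, and Cbs (25.7 ± 4.65) lay within the SD of Mat2a (27.2 ± 2.58) and well under Cth (64.3 ± 15.9). Lengths were of all annotated exons, and another transcript length moves the order within the tiers.

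S-adenosylmethionine is made by methionine adenosyltransferases. Mat1a (14:41105035-41124412, plus strand, GRCm38) encodes the catalytic subunit typical of adult liver. Its lowest, median and highest CPM were 3262, 4104 and 4926 in control and 2173, 3110 and 4230 in MCD. The diets overlapped, 6 MCD values being under the control minimum and the rest inside the control range. The log2 fold change was -0.37 (SE 0.11, edgeR adjusted p = 0.00733), which passed the p limit but not the fold limit, so Mat1a was not called.

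Mat2a (6:72432799-72439558, minus strand), the catalytic subunit found in most other tissues and in growing or injured liver, was the only member called higher. Its lowest, median and highest CPM were 60.4, 85.2 and 95.8 in control and 110.1, 119 and 143 in MCD. Every MCD library was above every control library. The log2 fold change was 0.56 (SE 0.072, edgeR adjusted p = 2.08e-07), or 1.48-fold. Mat2b (11:40679314-40695203, minus strand), the regulatory subunit that partners the Mat2a product, was at 23.97, 38.3 and 43.8 CPM in control and 36.1, 40.3 and 43.4 in MCD. Its log2 fold change was 0.13, with a 95% interval from -0.05 to 0.30 (edgeR adjusted p = 0.199). The interval holds 0 and leaves out a change past the fold limit under this scaling.

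Mat2a shares 508 exonic bases, 11.3% of its exons, with Particl, a transcript on the other strand. Particl had 24 to 71 counts a library, beside 1079 to 3943 for Mat2a, and a log2 fold change of 0.09 (edgeR adjusted p = 0.534). The study's methods name a stranded library kit for its RNA sequencing, without naming these livers, and whether strand was used in counting is not given in the sources used here. The processed copy Gm9523 shares 7.7% of the 51-base windows of the Mat2a transcript and held 7 to 244 counts a library. Its log2 fold change was 0.51 (edgeR adjusted p = 0.0288, not called), in the direction of Mat2a, with 8 MCD libraries above all control values, and how reads were divided between them was not tested.

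Gnmt (17:46725664-46729168, minus strand) encodes glycine N-methyltransferase, an abundant liver enzyme that uses up excess S-adenosylmethionine. Its lowest, median and highest CPM were 616, 1383 and 2550 in control and 459, 673 and 775 in MCD. The control libraries spread widely, with a coefficient of variation of 41.5% against 17.6% in MCD, and 5 MCD values were under the control minimum. Gnmt had the lowest log2 fold change of the members on the TMM scale, -1.15 (SE 0.18, edgeR adjusted p = 4.96e-06). Its mean level was 0.449 times that of control. Cbs was close to it (-1.13, SE 0.14). With libraries scaled on hepatocyte markers Cbs was the lower of these 2 genes, at -0.524 against -0.522.

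Ahcy (2:155059310-155074497, minus strand) encodes S-adenosylhomocysteine hydrolase, which splits the product of every such methylation. It was at 1384, 1862 and 2958 CPM in control and 1050, 1303 and 1886 in MCD, and 6 MCD values were under the control minimum. Its log2 fold change was -0.59 (SE 0.14, edgeR adjusted p = 0.000868). Reads from Ahcy may also match Gm4737, a copy that shares 73.9% of the 51-base windows of the Ahcy transcript and held 2057 to 5178 counts a library, so the Ahcy value is uncertain by what was split between them. Gm4737 had a log2 fold change of -0.39 (edgeR adjusted p = 0.0544).

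Remethylation of homocysteine runs through betaine or through folate. Bhmt (13:93616675-93637961, minus strand) encodes the betaine enzyme. Its lowest, median and highest CPM were 1661, 2787 and 4622 in control and 1092, 1702 and 2526 in MCD. The diets overlapped, and 5 MCD values were under the control minimum. The log2 fold change was -0.74 (SE 0.16, edgeR adjusted p = 3e-04). Bhmt2 (13:93655720-93674302, minus strand), whose product prefers S-methylmethionine as methyl donor, was at 138, 170 and 190 CPM in control and 70.9, 96.2 and 117 in MCD. On the TMM scale every MCD library was below every control library, whereas by total counts 10 were (83.5 to 130 CPM in MCD against 117 to 176 in control). The log2 fold change was -0.82 (SE 0.084, edgeR adjusted p = 4.58e-09). Copies of Bhmt, Gm5096 and Bhmt-ps1, share 56.6% and 31.6% of its 51-base windows but held at most 10 counts in any library, and the antisense Gm15622, which shares 187 exonic bases with Bhmt, held at most 40.

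Mtr (13:12182712-12258113, minus strand), the cobalamin-dependent methionine synthase that takes its methyl group from folate, was the least expressed member. It was at 3.02, 9.55 and 11.2 CPM in control and 5.45, 5.81 and 8.63 in MCD, from 40 to 212 counts a library. The control minimum was control replicate 12, and 0 MCD libraries lay below it. The log2 fold change was -0.55 (SE 0.13, edgeR adjusted p = 0.000976), just past the fold limit. The call was lost when any 1 of 7 libraries was left out, control replicate 3 or MCD replicates 2, 4, 7, 10, 11 or 12, with values from -0.50 to -0.47.

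Transsulfuration begins with Cbs (17:31608894-31637238, minus strand), cystathionine beta-synthase, which joins homocysteine to serine. Its lowest, median and highest CPM were 269, 413 and 740 in control and 145, 193 and 242 in MCD. On the TMM scale every MCD library was below every control library, whereas by total counts 10 were (170 to 289 CPM in MCD against 260 to 487 in control). The highest control value was that of control replicate 12. The log2 fold change was -1.13 (SE 0.14, edgeR adjusted p = 1.14e-07), a mean level 0.457 times that of control. Cth (3:157894248-157925077, minus strand), cystathionine gamma-lyase, which releases cysteine in the next step, was at 82.0, 176 and 296 CPM in control and 125, 171 and 254 in MCD. The MCD range lay inside the control range. Its log2 fold change was 0.03, with a 95% interval from -0.32 to 0.37 (edgeR adjusted p = 0.897), and its sign turned in 4 of the 24 fits that left out 1 library.

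The zero point of the fold changes depended on the scaling. With total counts alone the median log2 fold change of all genes was 0.27 in place of -0.10, and with libraries scaled on 9 hepatocyte markers, an alternative chosen after the data had been seen, it was 0.47. Mat2a stayed called higher, with 0.93 by total counts and 1.13 by hepatocyte markers. Gnmt and Cbs stayed called lower, at -0.75 and -0.74 by total counts and at -0.52 for both by hepatocyte markers. Ahcy, Bhmt, Bhmt2 and Mtr were not called under either scaling, at -0.21, -0.35, -0.45 and -0.21 by total counts. Mat1a, at -0.37 by TMM, was at -0.00832 by total counts. Scaled on hepatocyte markers, Ahcy was at 0.01 and Mat1a at 0.20, and Mat2b (0.70) and Cth (0.63) were called higher.

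Relative to the median of all genes under the same scaling, the values moved little, which follows from the scaling itself, since it shifts all genes by nearly the same step, and says nothing of how stable the changes are. Gnmt lay -1.05 from that median by TMM and -0.997 by hepatocyte markers. Cbs lay -1.03 and -0.999 from it, Bhmt2 -0.72 and -0.73, Bhmt -0.64 and -0.63, Ahcy -0.49 and -0.47, and Mtr -0.45 and -0.49. Mat2a lay 0.66 above it under both, and Mat1a -0.27 and -0.28 from it. The plot of fold changes by scaling shows these shifts.

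**Figure D2:**
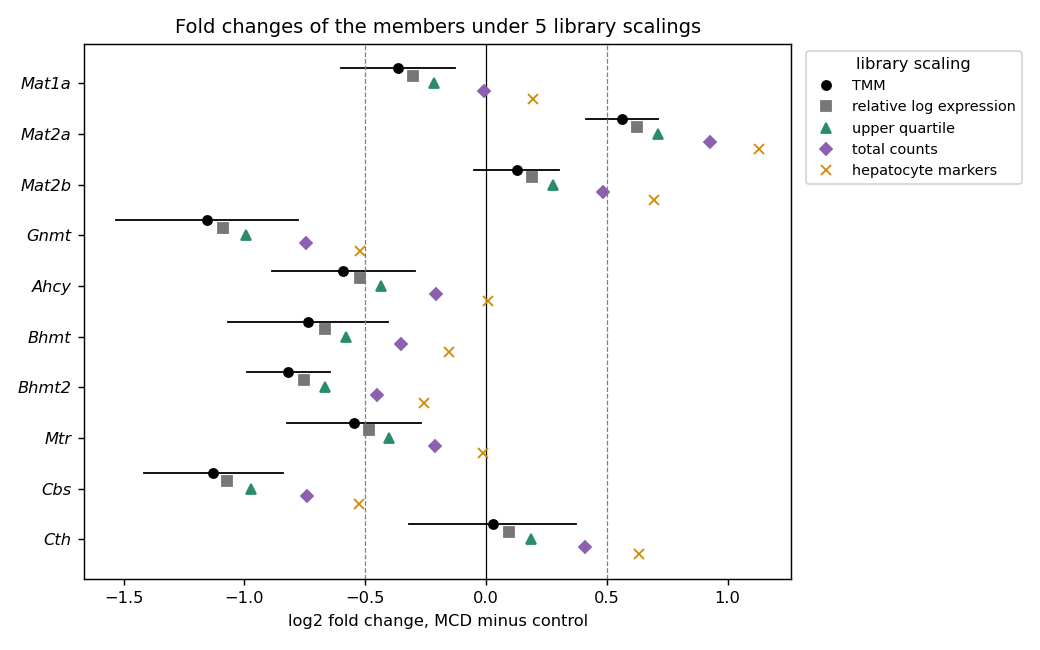
Log2 fold change of each member, MCD minus control (horizontal axis), under 5 scalings of the libraries (symbols), with the 95% interval of the TMM fit as a black line and dashed lines at the fold limit of 0.5 in each direction. Each gene shifts to the right from TMM to hepatocyte markers by a similar step; Mat2a stays beyond 0.5, and Gnmt and Cbs stay beyond -0.5 under all 5.

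Hepatocyte markers and those of other cell types moved with the diet. Of the 10 listed hepatocyte markers, 9 were matched and tested, 6 were lower and 0 higher, with a median log2 fold change of -0.71. Their summed level ran from 82446 to 188423 CPM in control and from 58639 to 84787 in MCD. All calls and ranges of sums here are on the TMM scale. The median hepatocyte sum was 106490 CPM in control and 76967 in MCD by TMM, but 96325 and 85980 by total counts. Alb, with a control mean of 79755 CPM by TMM, made up most of that sum. The mesenchymal and stellate markers were higher for 7 of 8, their sum ranging from 168 to 547 CPM in control and from 775 to 1382 in MCD. The sums of 6 monocyte-derived macrophage markers (46.1 to 205 against 1078 to 2136 CPM) and of 5 cholangiocyte markers (30.0 to 146 against 451 to 902 CPM), lists that share Spp1, did not overlap between diets, and all of those markers were higher. Of 5 endothelial markers 4 were lower, with a sum of 127 to 234 CPM in control and 76.0 to 127 in MCD, and of 5 Kupffer cell markers 4 were lower, with 137 to 422 against 81.2 to 296 CPM. Lymphocyte markers were higher for 4 of 6 (3.94 to 10.3 against 10.6 to 19.3 CPM) and proliferation markers for 5 of 5 (3.67 to 14.5 against 19.3 to 32.2 CPM). No matched marker was at 0 in all libraries. The part of these shifts in the members' values was not tested.

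Ratios of 2 members within a library do not depend on the scaling. The question here was whether partner enzymes kept their proportion. The Mat1a to Mat2a ratio of counts had a lowest, median and highest value of 36.4, 48.3 and 60.2 in control and 18.6, 23.9 and 36.8 in MCD. The mean log2 ratio fell by 0.95, from 5.62 ± 0.22 to 4.67 ± 0.35 (SD, n = 12 each; two-sided permutation test, p = 2e-05, the smallest that 100000 resamples can give, and 5e-05 adjusted over 5 ratios), and 10 of the MCD values were under the control minimum. The Cbs to Cth ratio of counts was 1.604, 2.14 and 5.14 in control and 0.631, 1.12 and 1.77 in MCD. Its mean log2 value fell by 1.16, from 1.28 ± 0.54 to 0.12 ± 0.46 (permutation p = 2e-05, adjusted 5e-05), and again 10 MCD values were under the control minimum. Leaving out any 1 library kept the first difference between -1.003 and -0.913 and the second between -1.23 and -1.06.

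The ratios among the remethylation genes showed no difference past the threshold. Bhmt over Bhmt2 had a mean log2 difference of 0.13 (permutation adjusted p = 0.427) and Bhmt over Mtr of -0.19 (adjusted p = 0.484). Leaving out 1 library gave 0.0797 (without control replicate 6) to 0.187 (without control replicate 1) for the first and -0.293 (without control replicate 3) to -0.0294 (without control replicate 12) for the second. Cbs over Bhmt, the pair at the branch between transsulfuration and betaine remethylation, had a mean log2 difference of -0.40 (adjusted p = 0.133), and 2 MCD values were under the control minimum. The plot of ratios by library shows the wide control spread behind these values.

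**Figure D3:**
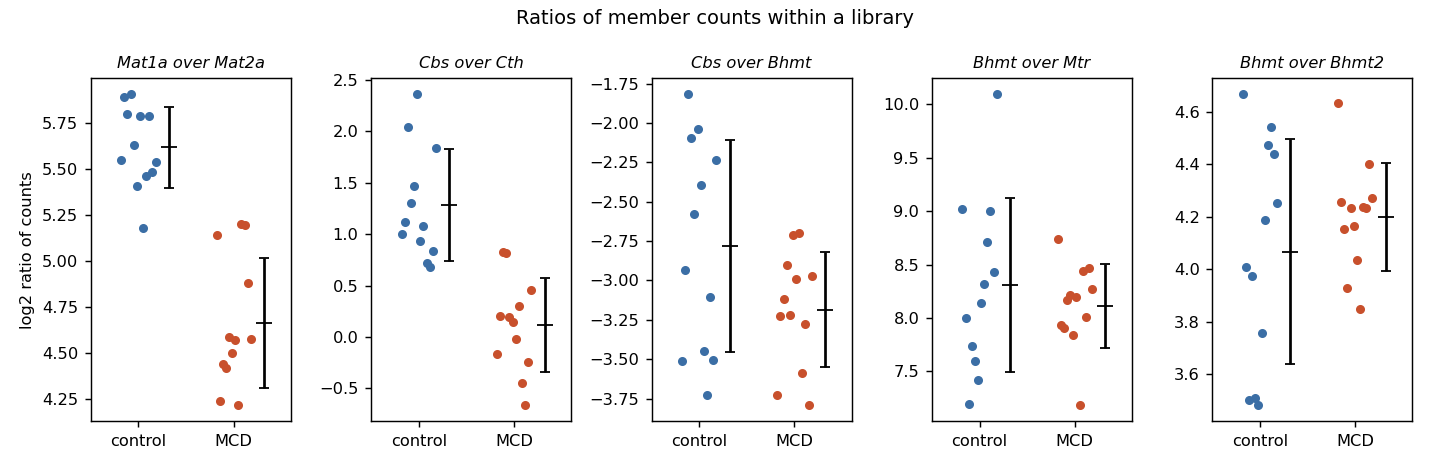
Log2 ratio of counts of 2 members in the same library (vertical axes, each with its own range) for 12 control (blue) and 12 MCD (orange) libraries; points are libraries and black bars the mean ± SD. The MCD libraries sit lower for Mat1a over Mat2a and Cbs over Cth, and the diets overlap widely for the other 3 ratios.

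How partners varied together within a diet was examined in 6 relations of log2 CPM over 12 libraries each, where both genes of a pair share the library's scaling. Bhmt and Bhmt2 varied together in MCD, with Pearson r = 0.761 (permutation p = 0.00406, adjusted 0.0244) and Spearman rho = 0.790 (permutation p = 0.00292, adjusted 0.0175). Dropping the 2 MCD libraries whose Bhmt level was most extreme gave r = 0.804 (adjusted permutation p = 0.0427) and rho = 0.758 (adjusted 0.0892), and with total counts alone r was 0.629 (adjusted permutation p = 0.174). In control the same pair had r = 0.531 and rho = 0.427 (adjusted permutation p = 0.234 and 0.336), and r = 0.027 and rho = 0.049 by total counts alone (adjusted permutation p = 0.937 and 0.940), and the difference between the diets was not tested. Mat1a with Mat2a had r = 0.340 in control and 0.06 in MCD, with rho = 0.217 and 0.07. Cbs with Cth had r = 0.337 in control and -0.06 in MCD, with rho = 0.483 and -0.05. By total counts the control r of Cbs with Cth was 0.034, and dropping its 2 most extreme libraries gave r = -0.411 in MCD (adjusted permutation p = 0.937 and 0.531). With all libraries and TMM, the adjusted permutation p of these 4 relations ran from 0.336 to 0.888 over both measures.

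Genes of the routes that feed or drain the cycle were taken from 4 lists drawn up by function, and all 37 were tested. Of these 18 were called (48.6%, beside 38.3% of all genes), 3 higher and 15 lower. That split turned with the scaling, to 8 higher and 3 lower by total counts and to 11 higher and 0 lower by hepatocyte markers, so the counts of each list hold for TMM. In the handling of S-adenosylhomocysteine and adenosine, 2 of 5 genes were lower and 0 higher (median log2 fold change -0.38). Adk, adenosine kinase, which removes the adenosine that Ahcy releases, was at 508, 688 and 862 CPM in control and 303, 371 and 419 in MCD. The diets did not overlap on the TMM scale, and its log2 fold change was -0.91 (SE 0.092, edgeR adjusted p = 3.84e-09). Ahcyl2, a relative of Ahcy, was at 12.8, 18.6 and 31.1 CPM in control and 9.90, 11.98 and 13.1 in MCD (log2 fold change -0.73, edgeR adjusted p = 1.13e-05).

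Among partners of remethylation, 7 of 12 genes were lower and 1 higher (median -0.57). Dmgdh, dimethylglycine dehydrogenase, which acts on the product of the betaine reaction, was at 386, 530 and 687 CPM in control and 221, 267 and 289 in MCD. The diets did not overlap on the TMM scale, and the log2 fold change was -1.02 (SE 0.082, edgeR adjusted p = 7.16e-11). Sardh, sarcosine dehydrogenase, which takes the next step and also recovers the sarcosine made by Gnmt, was at 835, 1182 and 2378 CPM in control and 599, 706 and 801 in MCD. The diets did not overlap on that scale here either (log2 fold change -0.86, edgeR adjusted p = 1.7e-06).

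Downstream of cysteine, 4 of 8 genes of taurine and sulfide metabolism were lower and 0 higher (median -0.46), a count that was 0 by total counts or hepatocyte markers, 1 or 2 under 7 other settings, and 1 to 4 when 1 library was left out. Suox, sulfite oxidase, was at 61.2, 101 and 131 CPM in control and 44.4, 57.2 and 75.0 in MCD (log2 fold change -0.79, SE 0.10, edgeR adjusted p = 3.08e-07). Csad, the decarboxylase that leads to taurine, ranged from 32.2 to 253 CPM in control and from 25.3 to 85.2 in MCD, and only 1 MCD library was below every control library. Its log2 fold change was -0.86 (SE 0.27, edgeR adjusted p = 0.00634), and this call did not hold firmly. It was lost under 9 of 12 other settings, with adjusted p as high as 0.233 by hepatocyte markers and 0.0904 by total counts. It was also lost in 12 of the 24 fits that left out 1 library (control replicates 4, 6, 8 and 11 and MCD replicates 2, 3, 4, 6, 7, 8, 10 and 12), where the highest adjusted p was 0.0176.

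Polyamine synthesis draws on S-adenosylmethionine and returns part of it through methionine salvage. Here 2 of 12 genes were higher and 2 lower (median 0.15). Sat1, which acetylates polyamines for breakdown, was at 52.1, 70.5 and 81.3 CPM in control and 104, 112 and 129 in MCD. The diets did not overlap on the TMM scale, and its log2 fold change was 0.74 (SE 0.073, edgeR adjusted p = 2.24e-09). Smox, spermine oxidase, was at 2.60, 6.34 and 10.2 CPM in control and 8.47, 10.5 and 12.4 in MCD (log2 fold change 0.74, edgeR adjusted p = 0.00016). Paox, the oxidase of acetylated polyamines, was lower, at 26.3, 37.2 and 64.8 CPM in control and 18.0, 21.9 and 26.6 in MCD (log2 fold change -0.89, edgeR adjusted p = 1.08e-06). Adi1, a methionine salvage enzyme, was at 88.8, 131 and 165 CPM in control and 76.0, 83.6 and 93.0 in MCD (log2 fold change -0.61, edgeR adjusted p = 2.08e-06). Exons of Csad overlap Zfp740 and those of Paox overlap Echs1 on the other strand, which leaves their counts uncertain if strand was not used. The plot of related genes shows 36 of the 37 values.

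**Figure D4:**
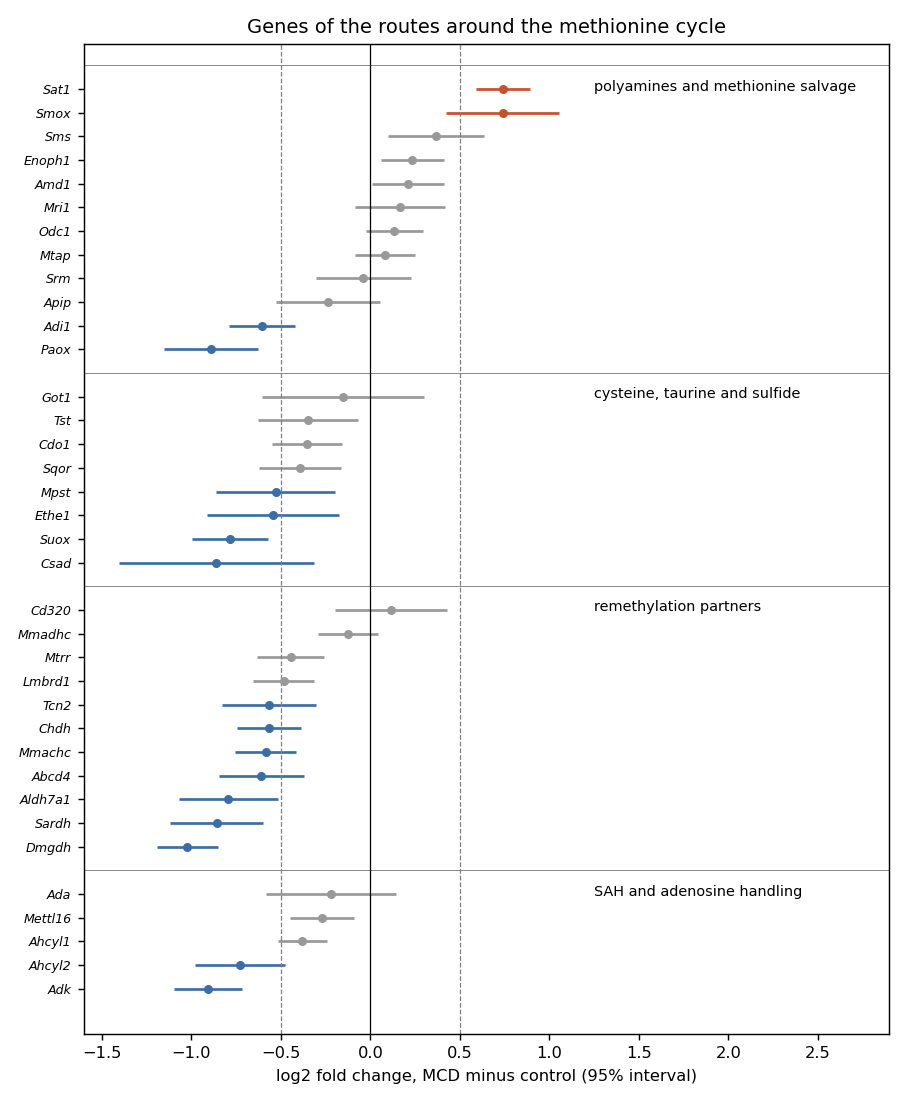
Log2 fold change, MCD minus control (horizontal axis), with its 95% interval for 36 genes of 4 related lists; orange genes were called higher, blue genes lower and grey genes not called, and dashed lines mark the fold limit of 0.5. Sat1 and Smox lie to the right of the limit, and the genes farthest to the left are Dmgdh (-1.02) and Adk (-0.91).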

How the data were processed

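Poly(A) RNA from 24 whole mouse livers had been sequenced. The values deposited by the authors are raw counts per Ensembl gene, 1 column a library, not normalized or filtered: 28652 of 56205 rows are 0 throughout. The submitters' processing notes name bcl2fastq, STAR 2.7.3a and mm10, with no role or order. The study's methods describe a stranded mRNA kit, the exon quantification pipeline with the same STAR version and PISCES for reads aligned to the human genome; they do not restate the counting program, annotation or strand setting for these mouse libraries. All 24 columns matched a sample title and 0 were unused. Symbols from a GENCODE annotation of GRCm38 named 51745 rows; unnamed rows held 0.0808% of counts. Positions and exon overlaps are from the same annotation, although some row identifiers belong to a newer one. Promoters are from RefSeq (GRCm38.p6).

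In edgeR 4.0.16 (R 4.3.3), genes were kept by filterByExpr by diet (14109), scaled by TMM and tested with the quasi-likelihood test, two-sided, with no covariate and Benjamini-Hochberg adjustment over all genes tested. Fold changes are on edgeR's log2 scale at its default settings. A prior count of 2 entered only the log2 CPM and the log2 ratios. The biological coefficient of variation was 26.8%. Tested on simulated counts for this comparison over 14109 genes, the procedure called 78 of 100 genes changed by a log2 of 1 and 97 of 100 changed by 2, with 0 false calls. Those counts held as many rises as falls and far fewer changed genes than were called in these livers. They therefore cannot show errors that come from the library scaling. Ratios and correlations were tested by permutation (100000 resamples, Python 3.11.15, scipy 1.17.1) and adjusted over 5 ratios and 6 relations at a limit of 0.05. Coding sequences were aligned in place of proteins, which were not used here. No pair of libraries was identical, and within a diet counts of every pair differed by more than sampling noise.

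Alternatives were relative log expression, upper-quartile and total-count scaling, no filter, 10 or more counts in every library, DESeq2 1.42.0, limma-voom (limma 3.58.1), a replicate block, a sex-linked score as covariate, other limits and each library left out. Hepatocyte-marker scaling and the TATA and CCAAT letters were chosen after seeing the data. The members, related lists and markers were chosen with earlier results of these data known. All 10 members are named, with, from each related list, the 2 called genes with the largest rise and the 2 with the largest fall among those with a mean of 5 CPM or more, and genes whose exons overlap a member. 1 called gene of the remethylation list is counted but not reported here. The p-values of differences weigh a difference between the diets against the spread between these libraries. Those of correlations compare r or rho with random pairings of the values.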

Additional observations from a re-analysis of the deposited data

How the results depend on the processing

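Total-count scaling gave 4539 genes higher and 848 lower (median log2 shift 0.27), against 2712 and 2688 by TMM; the higher share of calls was 84.3% against 50.2%, 65.6% with upper-quartile factors (1710 lower) and 56.5% with relative log expression factors or DESeq2. Scaling on hepatocyte markers gave 6473 higher and 468 lower, or 93.3% higher. Calls needing 10 counts in every library gave 1801 higher, an adjusted p of 0.05 with no fold limit gave 5221 lower, and a log2 limit of 1 gave 686 lower. Members lower numbered 2 by total counts, by hepatocyte markers and at the log2 limit of 1; members higher numbered 3 by hepatocyte markers and 0 at the limit of 1. Mtr was also lost with upper-quartile factors (-0.40), relative log expression factors (-0.49), DESeq2 (-0.49) and the 10-count filter (-0.47), and Ahcy with upper-quartile factors (-0.43). Mat1a (0.20) and Ahcy (0.00842) turned direction under hepatocyte-marker scaling. Cth turned to -0.01 without control replicate 5, control replicate 8 or MCD replicate 9 and to -0.0461 without control replicate 6, the lowest of its fits without 1 library, whose highest was 0.118.

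By total counts, lower calls were 1 in S-adenosylhomocysteine handling, 1 in remethylation (with 2 higher), 0 in cysteine metabolism and 1 in polyamines and salvage (with 6 higher). By hepatocyte markers they were 0 in all 4 lists, with 2 higher in remethylation and 9 in polyamines and salvage. Upper-quartile factors gave 3 lower in remethylation, 1 in cysteine metabolism and 1 in polyamines and salvage. Cysteine metabolism had 1 lower with relative log expression factors, no filter, the 10-count filter and limma-voom, and 2 with DESeq2; leaving out 1 library gave 1 to 4. With an adjusted p of 0.05 and no fold limit, 4 genes were lower in S-adenosylhomocysteine handling and 7 in cysteine metabolism, and 4 were higher in polyamines and salvage. At a log2 limit of 1, remethylation had 1 lower and 0 higher, and the other lists had 0 in each direction. Leaving out 1 library gave 5 to 6 members lower and 1 higher. The cause of these changes, where the limit itself does not set them, was not tested.

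Mat1a with Mat2a had r = -0.21 (control) and -0.11 (MCD) without the 2 farthest libraries and -0.23 in MCD by total counts. Bhmt with Bhmt2 in MCD had r = 0.629 by total counts. Replicate numbers are shared by the diets but nothing says that they pair animals: deviations of the libraries of 1 number correlated above 0.1 for 8 of 12 numbers (r from -0.28 to 0.35), and 2 control libraries matched their own number best. With a replicate block 2781 genes were higher and 2430 lower, members were at 1 higher and 6 lower, and cysteine metabolism had 1 lower (Csad -0.66, adjusted p = 0.047). Depth limits Mtr most, at 40 counts in its lowest library. The sex of a library and how evenly sexes fell among the libraries are not in the labels.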
